A study of Mus musculus with 12 samples.

Results

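The genes described here control the G1 phase of the cell cycle, and were measured in splenic B cells of mice with or without the repressor BCL6. They are the D-type cyclin genes Ccnd1, Ccnd2 and Ccnd3, the genes of their kinases, Cdk4 and Cdk6, the inhibitor genes Cdkn1b (p27) and Cdkn2c (p18), and the pocket protein genes Rb1 and Rbl2 (p130). They were chosen by name for their role in G1, but with earlier results of these data known. They make up 9 of the 18194 genes with a probe set of their own on the array. All 9 were on the array, through 26 probe sets, and 8 of them were tested. Ccnd1 was not, because it did not reach a log2 value of 4 on at least 2 arrays.

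The series measured total RNA of sorted spleen B cells on 12 Affymetrix arrays, in 6 groups of 2. All animals were female C57BL/6 mice aged 10 weeks that carried 1 mb1-cre allele, which drives Cre recombinase in the B lineage, so that the controls carried Cre too. The Bcl6 genotype was mb1-cre(+/-)Bcl6(+/+) (wild-type, WT), mb1-cre(+/-)Bcl6(+/flox) (heterozygous, HET) or mb1-cre(+/-)Bcl6(flox/flox) (homozygous deletion, HOM). Each genotype was measured in follicular (FO) cells, sorted as B220+AA4.1-CD21intCD23+, and in marginal zone (MZ) cells, sorted as CD21highCD23low. Magnetic depletion before the sort had used antibodies to CD5, CD43, CD11b, Gr-1, CD3 and other antigens. The mb1 promoter is active from early B cell development, so the allele is open to deletion before these cells mature. Whether both arrays of a group are from different animals is not stated in the labels, nor whether FO and MZ cells were taken from shared animals. The p-values thus reflect only how these samples vary, and part or all of that variation may be technical.

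Entry into the cell cycle is governed by the RB pathway. D-type cyclins bind CDK4 or CDK6, and the active complexes phosphorylate RB1 and its relatives, which releases E2F factors to switch on genes for DNA replication. CDKN2C blocks CDK4 and CDK6, CDKN1B mainly blocks CDK2 complexes, and RBL2 with the DREAM complex keeps cell cycle genes silent in resting cells. Follicular B cells recirculate at rest, whereas marginal zone B cells are known for a faster response to stimulation. Cyclin D2 is induced by signals from the B cell receptor, and BCL6 has been described as a repressor of its gene.

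Promoter sequences are printed for a pair of kinase genes that moved together across arrays, and for an inhibitor gene that moved the other way. Whether the sequences have a part in those levels was not tested. RefSeq promoters of GRCm38.p6, from 250 bases before to 50 after a start, were matched for 6 of the 9 genes in 8 entries. Each was searched on both strands for the E-box CACGTG, which MYC and other helix-loop-helix factors bind, for TTCCTNGAA, a form of the BCL6 motif, and for the E2F forms TTTCGCGC and TTTGGCGC. Capitals mark the E-box, and no match of one motif overlapped another. The 3 promoters shown are those of Cdk4 (chr10:127063285-127063584, plus strand), Cdk6 (chr5:3343643-3343942, plus strand) and Cdkn1b (chr6:134920151-134920450, plus strand).
Cdk4: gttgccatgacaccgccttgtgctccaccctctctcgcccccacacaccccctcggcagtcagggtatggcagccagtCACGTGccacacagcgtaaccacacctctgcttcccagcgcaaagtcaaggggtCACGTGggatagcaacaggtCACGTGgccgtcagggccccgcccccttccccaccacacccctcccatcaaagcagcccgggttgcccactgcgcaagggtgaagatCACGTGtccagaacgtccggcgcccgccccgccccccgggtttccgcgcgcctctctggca
Cdk6: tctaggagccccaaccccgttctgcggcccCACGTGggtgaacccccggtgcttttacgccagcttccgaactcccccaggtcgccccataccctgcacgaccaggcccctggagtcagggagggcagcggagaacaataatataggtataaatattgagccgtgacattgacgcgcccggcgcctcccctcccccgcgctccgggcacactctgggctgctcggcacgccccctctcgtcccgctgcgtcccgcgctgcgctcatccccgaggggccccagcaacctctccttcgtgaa
Cdkn1b: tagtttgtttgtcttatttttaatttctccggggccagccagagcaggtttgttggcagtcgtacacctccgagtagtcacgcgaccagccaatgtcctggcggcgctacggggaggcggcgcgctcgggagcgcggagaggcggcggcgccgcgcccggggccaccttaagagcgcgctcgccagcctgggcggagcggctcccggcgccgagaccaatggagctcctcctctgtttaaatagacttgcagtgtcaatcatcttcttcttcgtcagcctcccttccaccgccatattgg
The Cdk4 promoter held 4 E-boxes, which began 172, 118, 98 and 11 bases before the start. Of 32851 promoters of the same length, 7.15% held at least 1 E-box and 8 held 4 or more. The Cdk6 promoter held 1, which began 220 bases before the start, and a Cdkn2c entry held 1 after its start. The annotated Cdk6 gene begins at 3341004, before the printed window, so its entry is for a start inside the gene. The windows of Cdk4 and Cdkn1b hold their gene starts. The promoters of Ccnd3, Cdkn1b and Rbl2 held none in this window. The BCL6 form was present in 1.59% of all promoters and an E2F form in 0.813%, and neither was found in the 8 entries.

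The means of the marker lists separated the sorted fractions, with exceptions among the follicular markers. The mean log2 level of 4 follicular markers was 12.72 to 13.36 on FO arrays and 10.40 to 12.09 on MZ arrays. Cr2, which is on the follicular and the marginal zone list, read 12.07 to 13.42 on FO and 14.05 to 14.88 on MZ arrays. Klf2, another follicular marker, read 13.39 on MZ WT replicate 1 and 12.99 on MZ HOM replicate 1, against 13.10 to 14.07 on FO arrays. The mean log2 level of 7 marginal zone markers was 9.21 to 9.75 on FO arrays and 12.62 to 13.22 on MZ arrays, and 4 pan-B markers averaged 11.51 to 12.62. Of 5 T cell markers on the array only Cd8a passed the filter, and Cd3d, Cd3e and Cd3g read 2.21 to 2.25, at or just above the lowest value of the arrays. Bcl6 itself was read by 2 probe sets. 1450381_a_at read 4.94 and 5.61 on the FO WT arrays, 4.93 and 4.86 on FO HET and 2.36 and 2.48 on FO HOM, and was at the minimum on all MZ arrays. 1421818_at was higher on HOM than on WT arrays in both cell types, with means of 12.79 against 11.80 in FO and 10.16 against 8.55 in MZ. Which probe set lies in the floxed stretch is not given in the sources used here, and in MZ cells the first of them checks nothing. MZ WT replicate 1 stood apart. Its Gapdh control read 6.90 log2 units higher at the 3' than at the 5' end, against -0.20 to 0.63 on the other arrays, and it correlated at 0.944 with the other MZ WT array against 0.975 to 0.984 in the other groups. The minimum value of an array was 2.213 in FO and 2.219 in MZ, so the cell types may have been normalized in separate runs. That possible difference and cell type cannot be told apart. In sorted bulk samples, fewer cells that express a gene and less RNA per cell cannot be told apart either.

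Of the 3 D-type cyclin genes, Ccnd2 and Ccnd3 were well above the minimum in every group and Ccnd1 in none. Ccnd2 was 3.75-fold higher in FO cells with homozygous Bcl6 deletion than in wild-type FO cells, and it was the only one of the 8 tested genes called between genotypes. Ccnd3, the other cyclin of the family in these cells, was 2.41-fold to 2.88-fold lower in MZ than in FO cells at each genotype. It did not pass the test between genotypes.

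**Figure D1:**
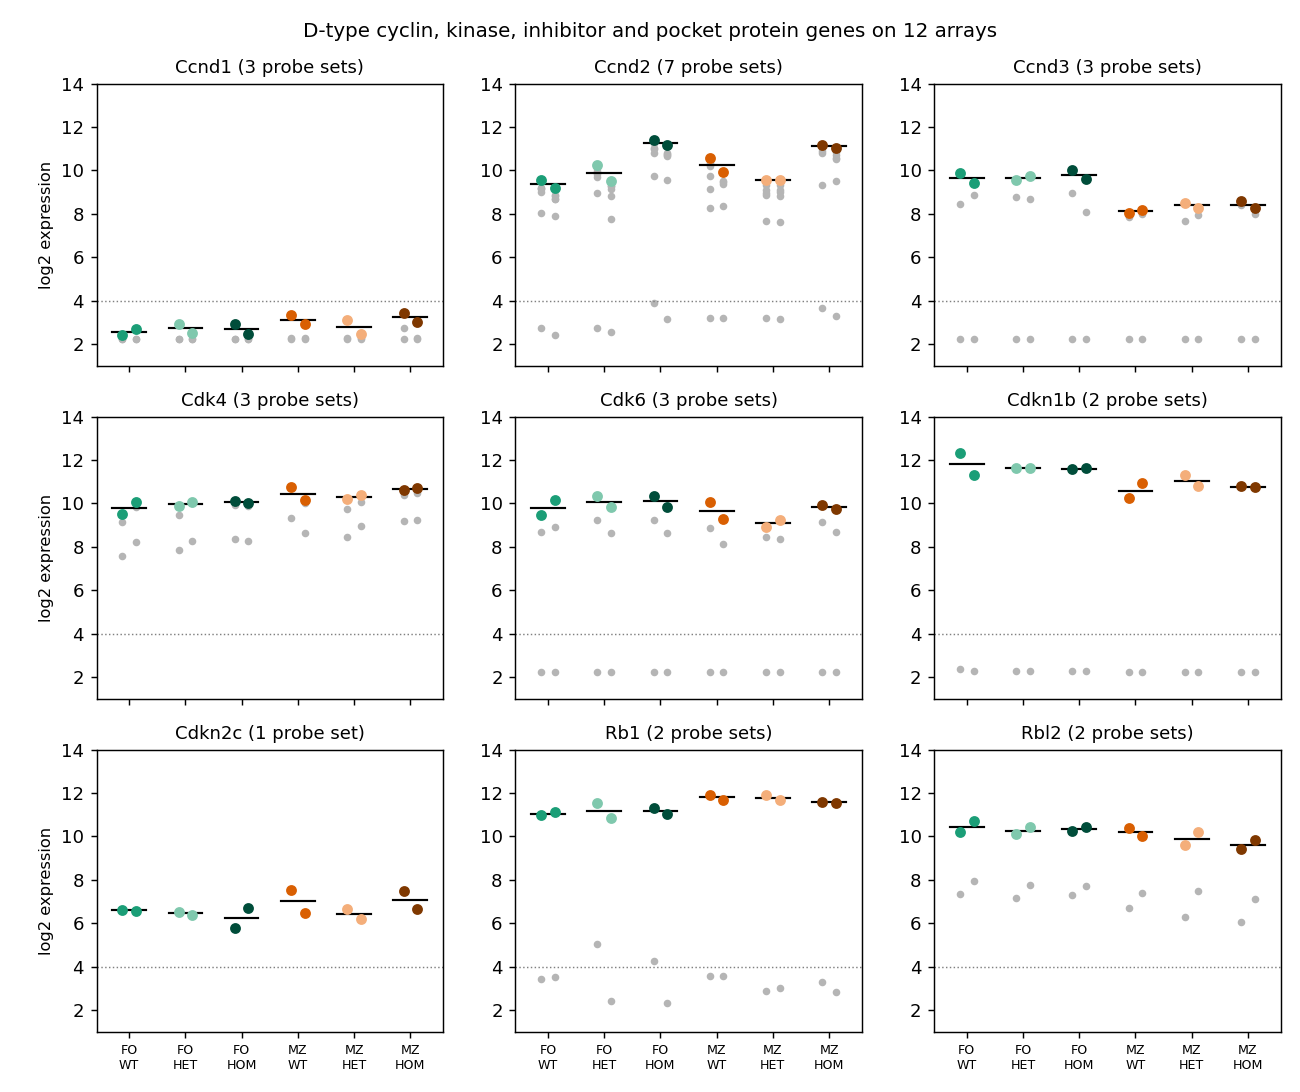
Deposited log2 expression of the 9 G1 genes (y axis) on the 12 arrays, by cell type and Bcl6 genotype (x axis), with the level of 4 used for testing as a dotted line. Coloured points are the 2 arrays of a group for the probe set with the highest mean, black bars their mean, and grey points the gene's other probe sets. Ccnd2 stands highest on the FO HOM and MZ HOM arrays, and Ccnd3 lies lower on every MZ array than on every FO array.

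Ccnd2 read 9.57 and 9.18 on the FO WT arrays, 10.24 and 9.54 on FO HET and 11.38 and 11.18 on FO HOM. In MZ cells it read 10.56 and 9.93 on WT, 9.54 and 9.55 on HET and 11.18 and 11.05 on HOM. Both HOM groups lay above every WT and HET array of their own cell type. The order of the group means was FO HOM, MZ HOM, MZ WT, FO HET, MZ HET and FO WT. Only MZ HOM and MZ WT, among neighbours in that order, had arrays that did not overlap.

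In FO cells the change from WT to HOM was 1.91 ± 0.28 (log2, SE, 2 arrays against 2), with an adjusted p of 0.0363 by limma. Across all 9307 tested genes 0.43% were called in this comparison (40 genes, 35 of them higher), and of the 8 genes Ccnd2 was the 1 called. The call depended on the processing: it was kept in 10 of 23 alternatives, while the change stayed between 1.71 and 2.10. Leaving out any 1 of the 4 arrays compared ended it, with limma adjusted p-values of 0.125 and 0.195 without FO WT replicate 1 and 2, and 0.291 and 0.149 without FO HOM replicate 1 and 2. It was also lost without either MZ HET array (0.0847) and without either MZ HOM array (0.0811), which give the fit part of its spread. With the 6 FO arrays alone the limma adjusted p was 0.171.

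The 7 Ccnd2 probe sets gave the same direction in FO cells. Each of them was higher in HOM than in WT, by 0.95 to 2.08 log2 units. When all 34958 probe sets with 1 gene symbol were fitted, 1430127_a_at was the 1 called (1.84 ± 0.18, limma adjusted p = 0.0474). That probe set read 8.99 and 8.86 on FO WT and 10.82 and 10.71 on FO HOM arrays. The 7 probe sets correlated with each other at 0.771 to 0.996 over 12 arrays after centring within cell type. They read the same transcripts on the same arrays and are not replicates. The lowest, 1416124_at, stayed between 2.44 and 3.89, near the minimum.

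**Figure D2:**
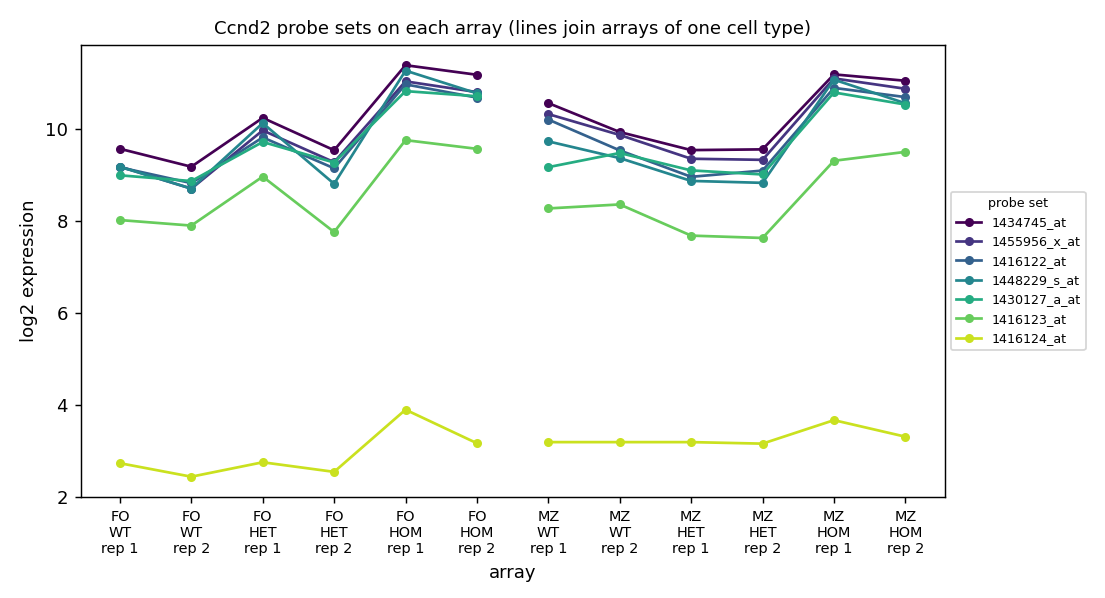
Log2 expression (y axis) of the 7 Ccnd2 probe sets on each of the 12 arrays (x axis), 1 line per probe set within each cell type. The 6 probe sets above the minimum run nearly in parallel, highest on both HOM groups, with FO HET replicate 1 above FO HET replicate 2.

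FO HET cells lay between WT and HOM for Ccnd2, but their arrays overlapped those of WT. The change from WT to HET was 0.52 ± 0.28 (limma adjusted p = 1), and from HET to HOM 1.39 ± 0.28 (limma adjusted p = 0.238). No gene at all was called between FO HET and FO WT (0%, 0 of 9307, and 184 at an unadjusted p under 0.05), and 0.0752% were called between FO HOM and FO HET. None of the 8 genes was called in either comparison, and at an unadjusted p under 0.05 none and 1 (Ccnd2) were below it. The FO comparisons share arrays, so their changes are not independent of each other.

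In MZ cells Ccnd2 did not pass the test in any genotype comparison. Its change from WT to HOM was 0.87 ± 0.28 (limma adjusted p = 0.759), from HET to HOM 1.57 ± 0.28 (limma adjusted p = 0.337) and from WT to HET -0.70 ± 0.28 (limma adjusted p = 0.792). All 7 probe sets were higher in MZ HOM than in MZ WT, by 0.30 to 1.34, and all 7 were lower in MZ HET than in MZ WT. The share of all genes called was 0.0645% for MZ HOM against WT, 0.0107% for MZ HET against WT and 0.0322% for MZ HOM against HET, and none of the 8 genes was among them. At an unadjusted p under 0.05, Ccnd2 alone of the 8 was below it in each of the 3, where 566, 287 and 506 of all 9307 genes were. The difference between the MZ and the FO change from WT to HOM was -1.04 ± 0.40 (limma adjusted p = 0.975), in a test that called 0.0107% of genes and none of the 8. The 2 cell types were therefore not shown to differ in how Ccnd2 changed.

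Other signals differed between arrays that carry the Ccnd2 result. The mean of 5 neutrophil markers was 6.93 on FO HOM replicate 1, 5.04 on FO HET replicate 1, 5.72 on MZ WT replicate 1 and 4.93 on MZ HOM replicate 1, and 2.28 to 2.31 on the other 8 arrays. On FO HOM replicate 1, S100a8 read 9.17, S100a9 9.81, Ngp 7.17 and Camp 6.28, against 2.21 to 2.61 on the FO WT arrays. Elane, the other marker of the list, read 2.21 to 2.26 on all 12. Over the 12 arrays, centred within cell type, Ccnd2 correlated with the neutrophil mean at 0.596 (0.626 over FO and 0.550 over MZ arrays). On FO HOM replicate 2, where the neutrophil mean was 2.31, Ccnd2 read 11.18, above every FO WT and FO HET array. The change from FO WT to FO HOM was 1.80 ± 0.37 without FO HOM replicate 1, but was then not called (limma adjusted p = 0.291). The part of the neutrophil signal in the Ccnd2 result was not tested further. The mean of 9 immediate-early genes, which respond to stimulation within minutes, was 8.63 and 11.49 on FO WT, 11.70 and 10.44 on FO HOM, so the groups overlapped in it. In MZ cells that mean was 11.24 and 10.15 on WT, 7.39 and 9.44 on HET and 11.71 and 9.78 on HOM, so that MZ HET, lowest for Ccnd2, was lowest here too. Its part in the MZ result was not tested.

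**Figure D3:**
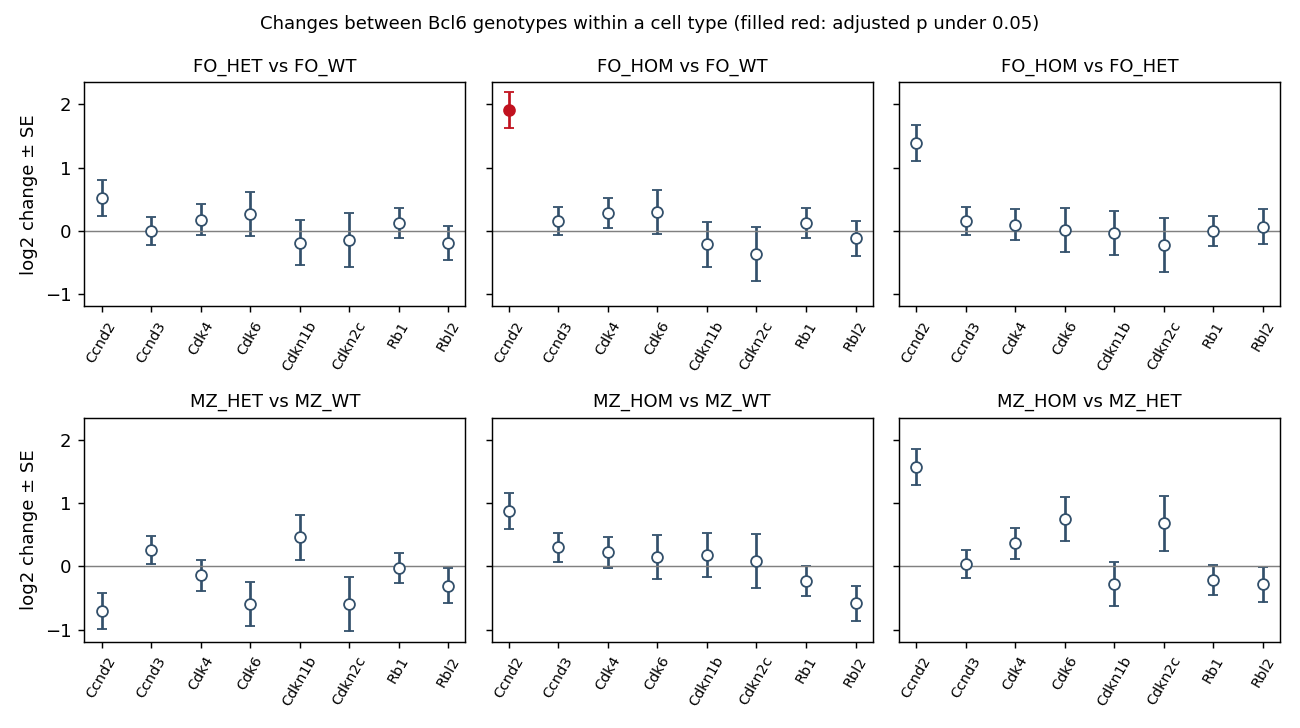
Log2 change ± SE (y axis) of the 8 tested genes (x axis) in the 6 comparisons of Bcl6 genotype within a cell type, from limma over 12 arrays, with adjusted p under 0.05 as a filled red point. Ccnd2 in FO HOM against FO WT (1.91 ± 0.28) is the 1 filled point, and Ccnd2 lies above 0 in both HOM comparisons of each cell type.

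Ccnd3 separated the cell types. It read 9.89 and 9.41 on FO WT, 9.55 and 9.76 on FO HET and 10.01 and 9.61 on FO HOM arrays. In MZ cells it read 8.05 and 8.19 on WT, 8.49 and 8.28 on HET and 8.57 and 8.28 on HOM. Every FO array thus lay above every MZ array, by at least 0.84 log2 units. The change from FO to MZ was -1.53 ± 0.22 in WT (limma adjusted p = 0.00162), -1.27 ± 0.22 in HET (limma adjusted p = 0.00438) and -1.38 ± 0.22 in HOM (limma adjusted p = 0.00309). Between MZ and FO cells 22.2% of all tested genes were called in WT, 23.2% in HET and 19.1% in HOM. Of the 8 genes 2 were called in WT (Ccnd3 and Cdkn1b), 1 in HET and 1 in HOM (Ccnd3 in both), so at most 2 of 8 were called where about as large a share of all genes was. MZ and FO arrays of a genotype did not overlap for 6 of the 9 genes in WT, 5 in HET and 6 in HOM. The counts in WT and HOM include Ccnd1, which was not tested and lay near the minimum, where the cell types differ. Over all tested genes, which leave Ccnd1 out, the shares without overlap were 56.8%, 65.6% and 63.7%. The 3 comparisons share no array.

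The fall of Ccnd3 was kept in all 22 alternatives in HET and in HOM and in 21 of 22 in WT, the exception being the fit on the 4 arrays compared alone (limma adjusted p = 0.0575). Its other probe set above the minimum, 1415907_at, gave smaller differences of -0.74 in WT, -0.91 in HET and -0.31 in HOM. None of these passed in the fit over all probe sets (limma adjusted p = 0.101, 0.0525 and 0.487). The size of the Ccnd3 difference therefore depends on the probe set. Between genotypes Ccnd3 changed by 0.00 to 0.30 log2 units with an SE of 0.22, and no comparison passed.

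Ccnd1, which drives proliferation in many non-lymphoid tissues, was near the minimum throughout. Its 3 probe sets read from 2.21 to 3.43. The highest of them, 1417420_at, averaged 2.54 to 2.72 on the FO groups and 2.78 to 3.23 on the MZ groups, all below the level used for testing. No fold is given for it.

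The level of Ccnd2 against Ccnd3 cannot be read off the arrays, since probe sets differ in response. Between cell types, however, the same probe set of Ccnd2 showed no common direction. It was 0.87 ± 0.28 higher in MZ than in FO cells in WT (limma adjusted p = 0.0596), and differed by -0.34 ± 0.28 in HET (0.424) and -0.16 ± 0.28 in HOM (0.749). In WT it passed when arrays were centred on their median (limma adjusted p = 0.0475) or quantile-normalized together (0.0385), without either FO HET array (0.0416), without MZ WT replicate 2 (1.19, 0.0255) and with the replicate block (0.0263). Another of its probe sets, 1455956_x_at, passed in WT in the fit over all probe sets (1.15 ± 0.28, limma adjusted p = 0.0148), and gave -0.28 in HET and 0.07 in HOM.

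The kinase genes Cdk4 and Cdk6 were not called in any comparison by their brightest probe sets. Cdk4 read 9.53 and 10.05 on FO WT, 9.89 and 10.06 on FO HET, 10.13 and 10.02 on FO HOM, 10.75 and 10.14 on MZ WT, 10.21 and 10.40 on MZ HET and 10.62 and 10.71 on MZ HOM. Every MZ array lay above every FO array, by as little as 0.01, and 56.8% to 65.6% of all genes were apart within a genotype. The difference was 0.66 ± 0.24 in WT (limma adjusted p = 0.0875), 0.33 ± 0.24 in HET (0.357) and 0.59 ± 0.24 in HOM (0.130). With arrays centred on the median it passed in WT (limma adjusted p = 0.0396) and in HOM (0.0419), and in WT also without MZ WT replicate 2 (0.96, limma adjusted p = 0.0221). Its other probe sets, 1422441_x_at and 1422440_at, were also higher in MZ cells at each genotype, by 0.15 to 1.08. In the fit over all probe sets 1422440_at passed in WT (1.08 ± 0.33, limma adjusted p = 0.0342), and did not in HET (0.158) or HOM (0.0723).

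Cdk6 read 9.46 and 10.16 on FO WT, 10.34 and 9.83 on FO HET and 10.37 and 9.85 on FO HOM arrays. In MZ cells it read 10.06 and 9.28 on WT, 8.92 and 9.24 on HET and 9.92 and 9.73 on HOM. The 2 arrays of a group differed by up to 0.78, in MZ WT. Both MZ HET arrays lay below the other 10, and the other 5 groups overlapped their neighbours in order of the mean. MZ HET was 1.01 ± 0.35 below FO HET (limma adjusted p = 0.0702) and 0.59 ± 0.35 below MZ WT (0.792). The first of these passed with array weights (limma adjusted p = 0.0416) and without either MZ WT array (0.0450).

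Cdk6 varied with the immediate-early level of the array. Over the 12 arrays, centred within cell type, its correlation with the mean of 9 immediate-early genes was 0.915 (0.973 over the 6 FO and 0.880 over the 6 MZ arrays). For Cdk4 it was 0.676, for Cdkn1b -0.793 and for Ccnd2 0.519. These values describe 12 arrays that share their cell preparation with both measures. The 4 arrays with the highest neutrophil means also held 4 of the 5 highest immediate-early means, at 11.24 to 11.71. The correlation of Cdk6 with the neutrophil mean was 0.758. Myc, which codes for a growth factor-responsive regulator that binds E-boxes, correlated at 0.913 with Cdk6, 0.728 with Cdk4 and -0.819 with Cdkn1b. Ccnd2, for which no promoter was matched, correlated with Myc at 0.613. The Cdk4 and Cdk6 promoters printed above hold the E-box and that of Cdkn1b does not, but they were chosen for how these genes moved across the same arrays. Ccnd3 and Rbl2, whose promoters hold no E-box either, correlated with Myc at -0.274 and 0.197. The Cdkn2c entry with an E-box belongs to a gene that correlated with Myc at 0.214 (-0.533 over FO and 0.730 over MZ arrays). A match describes the letters only. Whether any of these signals has a part in the others was not tested.

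**Figure D4:**
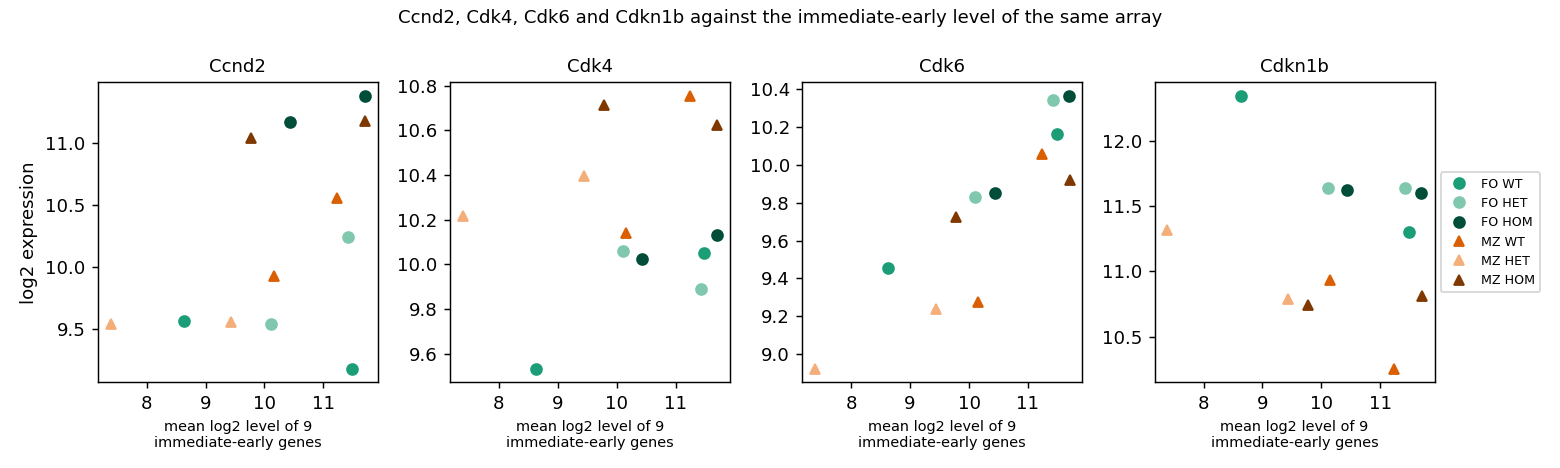
Log2 expression (y axis) of Ccnd2, Cdk4, Cdk6 and Cdkn1b on each array against the mean log2 level of 9 immediate-early genes on the same array (x axis), with circles for FO and triangles for MZ arrays. Cdk6 runs upward in both cell types, Cdkn1b is highest on FO WT replicate 1 (12.34), where the immediate-early mean is 8.63, and Ccnd2 is high on all 4 HOM arrays.

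Among the inhibitors, Cdkn1b was well above the minimum in every group, and it fell from FO to MZ cells in WT. It read 12.34 and 11.30 on FO WT, 11.64 and 11.64 on FO HET and 11.60 and 11.63 on FO HOM arrays. In MZ cells it read 10.26 and 10.93 on WT, 11.32 and 10.79 on HET and 10.81 and 10.74 on HOM. FO and MZ arrays of the same genotype did not overlap, as for 56.8% of all tested genes in WT, 65.6% in HET and 63.7% in HOM. The change from FO to MZ was -1.23 ± 0.35 in WT (limma adjusted p = 0.0379), -0.59 ± 0.35 in HET (0.268) and -0.83 ± 0.35 in HOM (0.144). The WT call rested on single arrays: the change was -0.71 (limma adjusted p = 0.191) without FO WT replicate 1, the array lowest in immediate-early genes among FO arrays, and -0.89 (0.190) without MZ WT replicate 1, the array that stood apart. It was kept in 9 of 22 alternatives, and lost with arrays centred on the median (-1.13, limma adjusted p = 0.0691). It was also lost without either FO HET array (0.0586), either FO HOM array (0.0593) or either MZ HOM array (0.0600). With the replicate number as a block it was lost too (limma adjusted p = 0.0550).

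Cdkn1b did not pass between genotypes. Its largest genotype difference was 0.46 ± 0.35 between MZ HET and MZ WT (limma adjusted p = 0.792). Across arrays it moved opposite to the kinase genes, with a correlation of -0.818 with Cdk4 (-0.892 in FO and -0.763 in MZ) and -0.790 with Cdk6. Cdk4 and Cdk6 correlated with each other at 0.803.

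Cdkn2c, the INK4 inhibitor known from B cell and plasma cell differentiation, had 1 probe set. It read 6.61 and 6.58 on FO WT, 6.52 and 6.39 on FO HET, 5.79 and 6.69 on FO HOM, 7.54 and 6.48 on MZ WT, 6.64 and 6.18 on MZ HET and 7.50 and 6.68 on MZ HOM. Its highest arrays were MZ WT replicate 1 and MZ HOM replicate 1, the MZ arrays with raised neutrophil markers. Its correlation with the neutrophil mean was 0.940 over the 6 MZ and -0.826 over the 6 FO arrays, and the part of that signal was not tested. No comparison of Cdkn2c was called. Its closest was MZ HOM against FO HOM, at 0.85 ± 0.43 (limma adjusted p = 0.218).

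The pocket protein genes Rb1 and Rbl2 were well above the minimum in all groups. Rb1 read 10.97 and 11.15 on FO WT, 11.54 and 10.84 on FO HET and 11.31 and 11.06 on FO HOM, and 11.91 and 11.70 on MZ WT, 11.91 and 11.66 on MZ HET and 11.61 and 11.54 on MZ HOM. Its MZ arrays lay above the FO arrays of the same genotype, where 56.8% (WT), 65.6% (HET) and 63.7% (HOM) of all tested genes were apart. The Rb1 difference was 0.74 ± 0.24 in WT (limma adjusted p = 0.0564), 0.59 ± 0.24 in HET (0.109) and 0.39 ± 0.24 in HOM (0.312), and none passed. In WT it passed with arrays centred on the median (0.84, limma adjusted p = 0.0484) and without either FO HET array (0.0230). In HET it passed without FO HET replicate 1 (0.94, limma adjusted p = 0.0273). Its other probe set, 1444400_at, read 2.32 to 5.06 and differed between the arrays of a group, as on FO HET (5.06 and 2.42). By that probe set the HET difference was -0.79.

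Rbl2 read 10.22 and 10.70 on FO WT, 10.11 and 10.43 on FO HET, 10.25 and 10.44 on FO HOM, 10.37 and 10.04 on MZ WT, 9.62 and 10.20 on MZ HET and 9.40 and 9.85 on MZ HOM. MZ HOM was the lowest group. Its difference was -0.72 ± 0.27 from FO HOM (limma adjusted p = 0.108) and -0.58 ± 0.27 from MZ WT (0.801). Its arrays lay below those of both groups, and 63.7% and 31.2% of all tested genes were apart in these comparisons. The second probe set, 1418146_a_at, gave -0.92 and no call in the former comparison. Rbl2 ran opposite to Ccnd3 across arrays, with a correlation of -0.731 (-0.537 in FO and -0.941 in MZ).

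Set together, the cyclin and kinase genes and the inhibitor and pocket protein genes gave few calls. From FO WT to FO HOM, all 4 tested cyclin and kinase genes had a positive change, with a median of 0.29 against 0.00 over all tested genes, and 1 was called. Of the 4 inhibitor and pocket protein genes 3 had a negative change, with a median of -0.16, and none was called. From MZ WT to MZ HOM, all 4 cyclin and kinase genes were positive (median 0.26 against -0.08 over all genes), and 2 of the 4 others. In both comparisons Ccnd3, Cdk4 and Cdk6 changed by at most 0.30, with SEs of 0.22 to 0.35. From MZ WT to MZ HET 3 of the 4 cyclin and kinase genes were negative (median -0.37). The share of all tested genes with a positive change was not computed. Arrays of the groups did not overlap for 1 of the 8 tested genes between FO HOM and FO WT, against 33.9% of all tested genes. Between MZ HOM and MZ WT they did not for 4 of the 8, against 31.2%.

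The rest of the pathway was compared through 6 lists of genes. None of the 56 tested genes on them was called between genotypes within a cell type or in the difference of the deletion effect by limma. Between MZ and FO cells 17 of them were called in WT (30.4%, against 22.2% of all tested genes), 13 in HET (23.2% against 23.2%) and 16 in HOM (28.6% against 19.1%). Of the 56 genes, 7 lay under a log2 value of 4 on all FO arrays and entered the test only through MZ arrays, where they are high: Ccna2, Ccne2, Cdkn3, E2f1, E2f8, Mybl2 and Tyms. Their calls follow in part from that filter, and their log2 differences are measured from values near the minimum. Without them 10 of 49 were called in WT (20.4%), 9 in HET (18.4%) and 9 in HOM (18.4%), shares near those of all genes. The shares of all genes were computed without such a cut. Of these 49, 5 (10.2%) were called at all 3 genotypes. The share of all tested genes called at all 3 was not computed, so these 5 are given as a description. E2f3, Tfdp1 and Tk1 were higher in MZ cells, and Cdkn2d and Foxo4 lower. Mki67, the proliferation marker, was 4.27 ± 1.24 higher in MZ WT than in FO WT (limma adjusted p = 0.0400), a call kept in 12 of 22 alternatives. Without FO WT replicate 2 the difference was 2.38 (limma adjusted p = 0.194). Its FO arrays ranged from 3.62 to 7.83 and its MZ arrays from 8.23 to 11.64.

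**Figure D5:**
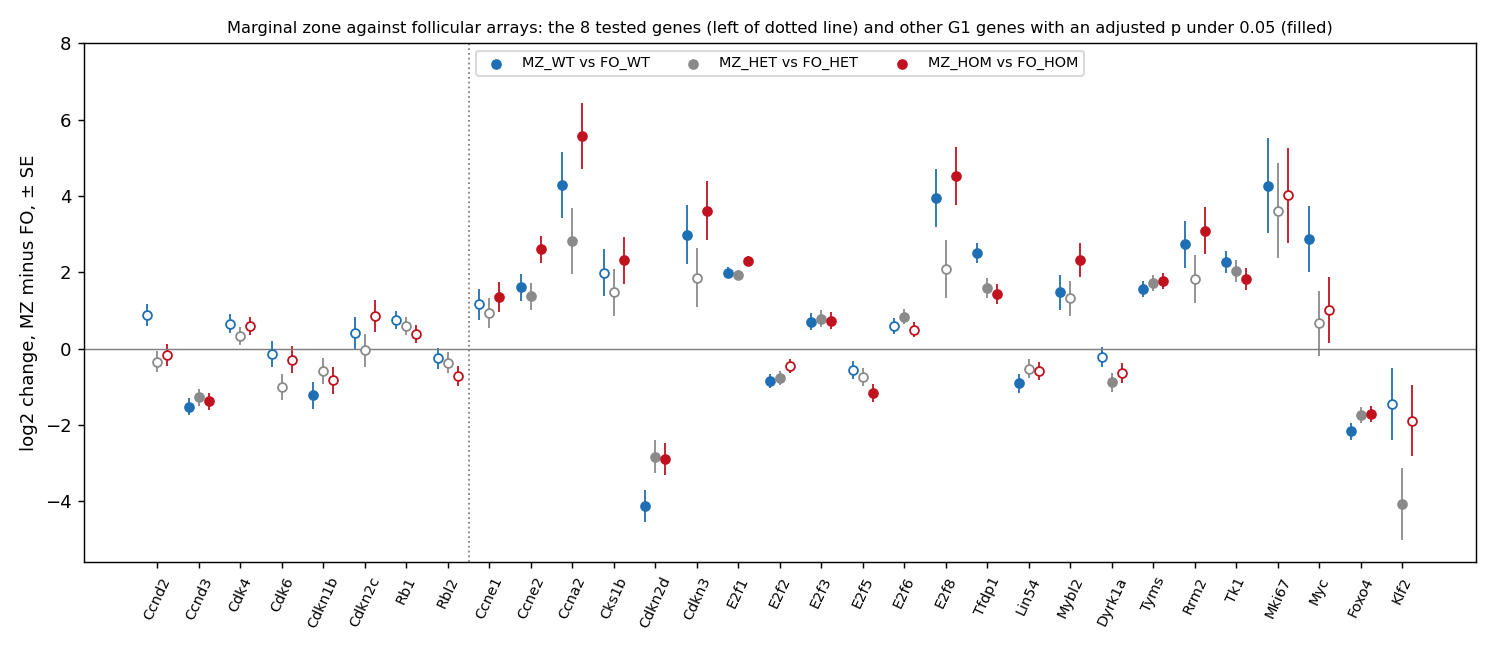
Log2 change from FO to MZ ± SE (y axis) at each Bcl6 genotype (colours) for the 8 tested G1 genes, left of the dotted line, and for the other listed genes called at 1 genotype or more (x axis). Filled points have a limma adjusted p under 0.05. Ccnd3 lies below 0 at all 3 genotypes, while Cdkn2d lies below -2.8. Ccna2, E2f8 and Cdkn3 lie far above 0 but were under a log2 value of 4 on all FO arrays.

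Downstream of the D-type cyclins, few genes of the cyclin E and A arm were called. Of the 11 genes of this list, all tested, 2 were called higher in MZ cells in WT (18.2%, against 22.2% of all tested genes), 2 in HET (18.2% against 23.2%) and 4 in HOM (36.4% against 19.1%), and none lower. Ccna2 and Ccne2, the genes called in WT and HET, are among those under 4 on all FO arrays. Ccna2, cyclin A2 of S phase and mitosis, read 2.90 to 3.29 on FO and 5.66 to 9.45 on MZ arrays. It was higher by 4.28 ± 0.87 in WT (limma adjusted p = 0.00859), 2.82 ± 0.87 in HET (0.0477) and 5.58 ± 0.87 in HOM (0.00247). The HET call was kept in 8 of 22 alternatives and lost without any 1 of 10 of the 12 arrays. The WT difference was 2.74 without MZ WT replicate 1 (limma adjusted p = 0.0152), and the call was lost without FO WT replicate 2 (0.0529). Ccne2, an E-type cyclin that activates CDK2, read 2.72 to 3.61 on FO and 4.12 to 5.75 on MZ arrays. In HOM Ccne1 (1.35, kept in 9 of 22 alternatives) and Cks1b (2.31, kept in 18), a CDK subunit, were also called. Cdk2, the kinase of this arm, named after its values were seen, averaged 9.45 on FO WT and 9.06 on MZ WT arrays and was not called.

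Of 7 other inhibitors and pocket proteins, 3 were tested. Cdkn2d (p19), a sister of Cdkn2c that also blocks CDK4 and CDK6, read 9.67 to 10.43 on the 6 FO arrays and 5.53 to 7.17 on the 6 MZ arrays. Its change from FO to MZ was -4.12 ± 0.43 in WT (limma adjusted p = 0.000245), -2.84 in HET and -2.89 in HOM. All 22 alternatives kept this call at each genotype. Cdkn3, a phosphatase that acts on CDKs, was called in WT and HOM, but was at 2.25 on every FO array and at 3.85 to 6.61 on MZ arrays. Its WT call was lost without MZ WT replicate 1, where the difference fell from 2.99 to 1.60 (limma adjusted p = 0.0580). Rbl1 (p107) was not called. Cdkn1a, Cdkn1c, Cdkn2a and Cdkn2b did not pass the filter.

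Among E2F and DP factors, 8 of 10 were tested, and in each genotype 4 were called higher and 1 lower in MZ cells (62.5%, against 22.2%, 23.2% and 19.1% of all tested genes in WT, HET and HOM). These shares count E2f1 at each genotype and E2f8 in WT and HOM. Both are among the genes under 4 on all FO arrays, so their calls follow in part from the filter. The share without them was not computed for this list, and the genes called differed between genotypes. The shares are therefore not read as an excess. E2f1, an activator of S phase genes, read 3.53 to 3.71 on FO and 5.39 to 5.93 on MZ arrays and was called at each genotype. Tfdp1, the DP partner of E2Fs, was higher by 2.49 ± 0.26, 1.59 and 1.42. It was well above the minimum in FO cells (7.99 to 9.34). E2f3 was higher by 0.71, 0.79 and 0.73, but its call was kept in 6 of 22 alternatives in WT and 9 in HOM. E2f8, a repressor that peaks in S phase, was called in WT and HOM, from 2.22 to 2.45 on FO and 3.97 to 7.73 on MZ arrays. E2f6 was called in HET (0.84, but 0.53 with a limma adjusted p of 0.106 without FO HET replicate 1). E2f2 was lower in WT (-0.85) and HET (-0.77), and E2f5 in HOM (-1.16).

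The DREAM list gave few calls. It holds Rbbp4 and LIN genes of the complex that acts with RBL2, and also Mybl2 and Dyrk1a, which are not subunits of it. Of its 7 genes 2 were called in WT (28.6%, against 22.2% of all tested genes), 1 in HET (14.3% against 23.2%) and 1 in HOM (14.3% against 19.1%). Apart from Lin54 in WT, these calls were of Mybl2 or Dyrk1a, and Mybl2 was under 4 on all FO arrays. Mybl2, which codes for B-MYB, a partner of the LIN proteins in dividing cells, was higher in WT (1.48 ± 0.45, limma adjusted p = 0.0494) and HOM (2.32 ± 0.45, 0.00819), from 2.22 on all FO arrays. Its WT call was kept in 6 of 21 alternatives, and the difference was 0.93 (limma adjusted p = 0.248) without MZ WT replicate 1. Lin54 was lower in WT (-0.91, kept in 14 of 22 alternatives). Dyrk1a, a kinase that promotes DREAM assembly, was lower in HET (-0.89, kept in 10), and its difference was -0.54 (limma adjusted p = 0.232) without MZ HET replicate 1. Lin9 and Lin52 were not called. The list's median was -0.23 in WT, -0.41 in HET and -0.48 in HOM.

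Replication genes that E2F activates numbered 15 tested of 16. In MZ cells 4 were called higher in WT (Tyms, Rrm2, Tk1 and Mki67), 2 in HET and 3 in HOM, and none lower. These shares, of 26.7%, 13.3% and 20%, are near or below the 22.2%, 23.2% and 19.1% of all tested genes. Tk1, thymidine kinase, was higher by 2.26 ± 0.29, 2.03 and 1.82. Tyms, thymidylate synthase, read 2.64 to 2.98 on FO and 4.18 to 4.63 on MZ arrays. Between genotypes in MZ cells, all 15 were higher in HOM than in HET, with a median of 0.99 against 0.00 over all tested genes. None was called by limma, and 8 had an unadjusted p under 0.05, as had 506 of all 9307 tested genes. From MZ WT to MZ HET 14 of the 15 were negative (median -0.65, against -0.05 over all tested genes). From MZ WT to MZ HOM 14 were positive (median 0.34, against -0.08). In FO cells 10 were positive from WT to HOM (median 0.07). The MZ comparisons share arrays, and MZ HET was also the group lowest in the immediate-early mean (7.39 and 9.44). Replicate 1 of MZ WT and of MZ HOM had raised neutrophil markers, and neither MZ HET array had. MZ WT replicate 1 also stood apart in its Gapdh control. Rrm2 read 9.80 and 8.11 on MZ WT, 8.36 and 7.74 on MZ HET and 10.36 and 9.29 on MZ HOM. Tyms was not higher on those replicate 1 arrays (4.18 and 4.58 on MZ WT, 4.20 and 4.63 on MZ HOM). The part of single arrays in these directions was not tested.

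Regulators of quiescence and growth numbered 12 tested of 13, of which 2 were called in WT (16.7%), 2 in HET (16.7%) and 1 in HOM (8.33%), below the share of all tested genes in each. Foxo4, a FOXO factor of the family that activates Cdkn1b, fell from FO to MZ cells, with changes of -2.17 ± 0.21 in WT, -1.75 in HET and -1.71 in HOM. Myc was higher in MZ WT (2.87 ± 0.86, limma adjusted p = 0.0447), a call kept in 6 of 22 alternatives. Without FO WT replicate 1 its difference was 1.89 (limma adjusted p = 0.232). Klf2, a quiescence factor of lymphocytes, was lower in MZ HET (-4.07 ± 0.94, limma adjusted p = 0.0156). Klf2 read 13.39 on MZ WT replicate 1 and 12.99 on MZ HOM replicate 1, but 9.07 to 10.89 on the other MZ arrays. Tsc1 and Btg2 were not called.

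How the MZ and FO arrays are scaled bears on all of these levels. The median change of all tested genes from FO to MZ was -0.12 in WT, -0.17 in HET and -0.17 in HOM. Centring arrays on their median removed that shift, and the split of called genes in WT went from 993 higher and 1073 lower to 1167 higher and 841 lower. In HET it went from 925 and 1234 to 1173 and 782, and in HOM from 770 and 1004 to 951 and 692. Ccnd3 was called at all 3 genotypes under either scaling. With centring, the genes of the 8 called in WT were Ccnd2, Ccnd3, Cdk4 and Rb1 in place of Ccnd3 and Cdkn1b.

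Genes with the most similar pattern were sought among all tested genes, by Pearson correlation over 12 arrays after subtracting the mean of each cell type. For Ccnd2 they were Dstn, which codes for an actin-severing protein (0.954), Phgdh, the first enzyme of serine synthesis (0.939), and Dcaf1, a ubiquitin ligase adaptor (0.939). Dstn read 8.34 and 8.38 on FO WT and 9.26 and 9.36 on FO HOM arrays. Phgdh read 11.70 and 11.60 on FO WT and 12.50 and 12.36 on FO HOM. For Cdk6 they were Ube2a (0.955), Nr4a2 (0.954) and Hdgf (0.952). Nr4a2, a nuclear receptor gene induced by stimulation, read from 2.21 to 12.03. For Cdk4 they were Pi4ka, Sipa1l1 and Atp5mpl (0.923 to 0.933), and for Cdkn1b Ppwd1, Trim56 and Cep295 (0.925 to 0.943). Cdkn2c was most like Rpa2, Ubr7 and Rpa3 (0.900 to 0.914), of which Rpa2 and Rpa3 code for subunits of the replication protein A. Ccnd3 had the weakest likeness (Ammecr1l, Ggact and Cotl1, 0.858 to 0.885). Rb1 was most like Zfand3, Ofd1 and Erbin, and Rbl2 most like Map3k8, Mlx and Traf5. As the highest among 9307 genes, these correlations are a description and carry no p.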

How the data were processed

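The authors deposited log2 expression for each probe set. Per the submitters' processing notes the tool was GCRMA, which leaves low values at a shared minimum. The version of GCRMA is not given in the sources used here. Depth has no meaning for arrays, and their number limits the precision. Gene symbols came from the platform annotation, which can be old: of 45101 probe sets 34958 had 1 symbol, 932 several and 9211 were not listed. The brightest probe set of a gene, by its mean of 12 arrays, stood for it, and 9307 genes were tested that reached a log2 value of 4 on 2 arrays or more.

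Samples were grouped by cell type and genotype. Means of 6 groups were fitted in 1 model with limma 3.58.1 (lmFit, eBayes) in R 4.3.3, with 6 residual degrees of freedom. Tests were two-sided, and p-values were adjusted by Benjamini-Hochberg over all tested genes, with a threshold of 0.05. The model was tested on simulated data. Levels are log2 values per array, and changes log2 differences ± SE. The 9 genes and all lists were chosen with earlier results of these data known. Named by rule were the 9 genes, every called gene of the 6 other lists with up to 4 members of smallest p in each, and the 3 genes most like each of the 9. Lists were described by counts and medians, without a set test. Promoters were RefSeq sequences of GRCm38.p6, and no entry was matched for Ccnd1, Ccnd2 and Rb1. Alternatives covered which probe sets and low genes were used, the moderation of variances, weights and scaling of arrays, which arrays were fitted, the replicate block and leaving out each array. The fit on 6 arrays of 1 cell type was added after seeing the data.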

Additional observations from a re-analysis of the deposited data

How the results depend on the processing

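Counts of the 8 tested genes called in each comparison were recomputed under 22 or 23 alternatives, 12 of which leave out 1 array. For FO HOM against FO WT the count of 1 (Ccnd2) fell to 0 with no filter on low values (limma adjusted p of Ccnd2 = 0.124), with all probe sets in the model (0.158), with the probe set of largest variance (0.176), with only the 4 arrays compared (0.392) and with the 6 FO arrays alone (0.171). It ranged from 0 to 1 when an array was left out. For MZ against FO in WT the count of 2 became 3 with no filter, with all probe sets and with eBayes trend and robust (Rb1 added), 3 with the probe set of largest variance (Cdk4 added), 1 with array weights, 4 with arrays centred on the median, 4 with quantile normalization and 0 with only the 4 arrays compared, and it ranged from 1 to 4 when an array was left out. In HET the count of 1 became 2 with array weights and with quantile normalization, and ranged from 1 to 2 when an array was left out. In HOM the count of 1 became 2 with array weights, centring, quantile normalization and only the 4 arrays compared, and stayed at 1 when an array was left out. In the 5 other genotype comparisons and in the difference between cell types the count was 0 under each alternative. The sign turned in 1 case: Rb1 in MZ HET against FO HET was -0.79 (limma adjusted p = 0.549) with its probe set of largest variance, another and dimmer probe set.

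Over all genes, the 40 calls in FO HOM against FO WT ranged from 0 to 56 under alternatives that kept all arrays and from 7 to 58 without 1 array. MZ HOM against MZ WT, with 6 calls, gave 325 without MZ WT replicate 2 and MZ HET against MZ WT, with 1, gave 415. The 2066 calls of MZ against FO in WT became 8089 with no filter and 604 with only the 4 arrays compared. With no filter, genes at the minimum enter the test, and the minimum differs between the cell types. The cause of the other differences was not tested.

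Replicate numbers were not taken as pairs, but replicate 1 minus replicate 2 differences were shared by some groups. Among FO HET, FO HOM, MZ WT and MZ HOM, whose replicate 1 arrays had raised neutrophil markers, they correlated at 0.45 to 0.77. Between FO WT and MZ HET the correlation was 0.58, and the rest were -0.26 to 0.12. The main model treats such differences as spread between arrays. Their cause was not tested. With the replicate number as a block, the counts of members stayed at 1 for FO HOM against FO WT, 2 for MZ against FO in WT and 1 in HET and HOM, but in WT Cdkn1b was lost and Ccnd2 gained. Over all genes the block gave 33 calls in FO HOM against FO WT and 2309 in MZ against FO in WT. With 2 arrays a group, a gene not called is not shown to be unchanged.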
